A study of Homo sapiens with 6 samples.

Results

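Interferon-stimulated and innate sensing genes were followed across NCI-H460 cells, an established line of human non-small cell lung cancer. A list of 44 genes was drawn from background knowledge of the pathway, with earlier results of these data already known. It held 10 sensors and transcription factors, 27 antiviral effectors and 7 antigen presentation genes. A gene was measured when a probe carrying its symbol was detected on at least 2 of the 6 arrays, and 39 of the 44 members met this, among 12101 measured genes in all. The measured members were 8 sensors and transcription factors, 24 antiviral effectors and 7 antigen presentation genes.

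The arrays held 6 groups with 1 array each and no replicate. The CSC-rich population, a fraction rich in cancer stem cells that was propagated from NCI-H460 as spheroids, was treated with the agent PNAs-A15 for 6 h, treated with a scramble control for a time the labels do not state, or left untreated. The parental cells, called wild type in the labels, came in the same 3 states. The protocols name serum for parental cultures and not for CSC-rich ones, so that effects of serum and of population cannot be told apart. The code name PNAs-A15 is used as it stands, since no source here spells it out, and for treated CSC-rich cells the label has only PNA, taken here as the same agent. All 6 arrays come from 1 cell line, and nothing in the labels says which arrays came from separate cultures.

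Interferons are secreted proteins that bind cell surface receptors, whose kinases JAK1 and TYK2 phosphorylate STAT proteins. A complex of IRF9 with phosphorylated STAT proteins then binds the interferon-stimulated response element (ISRE) of target genes, while other complexes of the pathway bind the gamma-activated site (GAS). In cells of epithelial origin the pathway is set off by receptors for foreign nucleic acids, such as IFIH1 and RIGI, and many of its targets are also transcribed at a basal level without infection.

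Between 36.5% and 42.8% of the 47323 probes were detected on an array, meaning a detection p under 0.05 against the array's negative controls. The parental PNAs-A15 array had the lowest share, 36.5%, and the CSC-rich scramble array the next, 38.5%. Pearson's r over the measured genes was 0.828 to 0.871 between the parental PNAs-A15 array and each of the rest, and 0.912 to 0.992 among the other 5. Of 6 epithelial markers, the keratins KRT8 and KRT19 were measured and detected on all 6 arrays, whereas EPCAM, CDH1, KRT7 and KRT18 were not measured. Of 11 immune and 10 fibroblast or endothelial markers, 5 and 4 were measured. Every level below is a log2 normalized intensity of 1 probe, a scale on which 1 unit is a 2-fold difference and on which the levels of different genes are not compared. Since these are bulk RNA samples, fewer cells of a type and less RNA per cell cannot be told apart.

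The promoter stretches of 10 members are shown because they carry the elements through which the pathway reaches its targets. They are RefSeq sequences of build GRCh38.p14, on the strand of the gene, and they end before the transcription start. Capitals mark the ISRE core (GAAA, any 2 bases, GAAA, on either strand), or the GAS core TTCNNNGAA in IRF1 and IRF9.
IFIT1 (chr10:89392495-89392541): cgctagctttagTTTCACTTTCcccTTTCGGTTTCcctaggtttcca
IFI6 (chr1:27672264-27672319): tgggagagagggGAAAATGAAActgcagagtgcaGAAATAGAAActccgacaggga
IFITM1 (chr11:313988-314021): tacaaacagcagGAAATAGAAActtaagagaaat
IFIH1 (chr2:162318685-162318717): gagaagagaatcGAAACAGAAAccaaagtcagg
SAMD9 (chr7:93118094-93118127): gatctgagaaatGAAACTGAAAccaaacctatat
HERC5 (chr4:88456982-88457066): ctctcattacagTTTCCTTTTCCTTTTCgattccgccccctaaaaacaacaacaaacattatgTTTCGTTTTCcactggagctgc
OAS3 (chr12:112938450-112938473): agagccgggcggGAAAACGAAAcc
PARP9 (chr3:122564324-122564349): gcgcaaagTTTCAGTTTCgcttccct
IRF1 (chr5:132490877-132490909): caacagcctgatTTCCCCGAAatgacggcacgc
IRF9 (chr14:24161190-24161222): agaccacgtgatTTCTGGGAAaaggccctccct

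The window searched ran from 250 bases before to 50 bases after each start. Of the 44 members 37 had a window, and 25 of these (67.6%) held the ISRE core, which stood in 4.38% of the 27305 genes with a window. The GAS core, which can overlap the ISRE core, stood in 11 of the 37 members (29.7%) and in 9.38% of all genes. By class, the ISRE core stood in 3 of 8 sensors and transcription factors, 18 of 22 antiviral effectors and 4 of 7 antigen presentation genes that had a window. The stretches do not show every match: the window of IFI6 held 3, of which 2 are printed, that of IFIH1 held 3 and those of OAS3 and IFITM1 held 2 each, of which 1 is printed. HERC5 held 3 matches, 2 of which overlapped. A match is a description of the letters and not of a bound site. Among members with a window, the core stood in 8 of the 11 that were at least 2-fold higher with PNAs-A15 than with scramble in parental cells, 4 of the 5 that read at least 2-fold lower and 11 of the 18 under 2-fold. The match printed for PARP9 lay at chr3:122564332-122564341, which is also the match found in the window of DTX3L, a gene transcribed the opposite way from the same stretch.

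In parental cells, PNAs-A15 was compared with the scramble control, 1 array each. On the parental PNAs-A15 array 14 of the 39 members (35.9%) were at least 2-fold higher than on the scramble array, and 6 (15.4%) read at least 2-fold lower, 3 of them on a probe not detected with PNAs-A15. Over all measured genes the shares were 21% higher and 16.8% lower on that pair, 37.8% together. With a bound in place of the measured value wherever a probe was not detected, 14 members remained above the 2-fold line and 4 below it, against 20.3% and 14.4% of all genes. With scaling to the array median the split was 10 higher and 10 lower members, with 7.01% and 27.4% of all genes. The median member difference was 0.70, beside 0.20 for all genes. Scramble and untreated parental cells differed at least 2-fold in 0 of the 39 members, against 0.669% of all genes (0.446% higher, 0.223% lower). No test was possible between 2 single arrays.

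Among the sensors, IFIH1 (MDA5), which binds long double-stranded RNA in the cytosol, read 7.68 with PNAs-A15, against 5.77 with scramble and 6.38 in untreated parental cells. RIGI, the sensor of short RNA with a 5' triphosphate, read 6.65 with PNAs-A15, against 5.88 with scramble and 6.31 untreated. The PNAs-A15 array thus had the highest parental value of both sensors, by 1.91 for IFIH1 and 0.77 for RIGI over scramble. RIGI turned to -0.11 on unnormalized signals, which here and below also lack the background correction and offset. EIF2AK2 (PKR), a kinase that stops translation on binding double-stranded RNA, and ADAR, the enzyme that edits adenosine in such RNA, differed from scramble by 0.18 and 0.00. TLR3, the endosomal receptor for double-stranded RNA, had 2 probes, neither of which was detected on any array. No probe was named for STAT2 in the annotation used here.

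The interferon regulatory factors moved apart on the parental PNAs-A15 array. IRF1, a transcription factor that binds the ISRE and is itself induced through its GAS element, read 10.02 with PNAs-A15, against 7.54 with scramble and 7.88 untreated. IRF7, which amplifies type I interferon transcription, read 7.99 with PNAs-A15, against 6.12 with scramble and 6.55 untreated. IRF3, the constitutive factor activated by the sensors, read 9.89, against 9.23 and 8.86. IRF9, the DNA-binding partner of the STAT complex, went the other way and read 7.99 with PNAs-A15, against 10.08 with scramble and 10.14 untreated. IRF1 was therefore 2.48 and IRF7 1.86 above scramble, and IRF9 lay at -2.09; all 3 kept their sign with scaling to the array median and on unnormalized signals, whereas IRF3 turned below 0 under both.

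Of the 24 antiviral effectors 11 (45.8%) were at least 2-fold higher than scramble on that pair, against 21% of all genes. At least 2-fold lower read 4 (16.7%), against 16.8% of all genes. Of these, OAS3, detected on both arrays, and USP18, by its bound, are shown to be so (8.33%, against 14.4% of all genes with bounds). UBE2L6, the conjugating enzyme that passes ISG15 to its targets, had the largest difference of any member with the main scaling. It read 10.45 with PNAs-A15, against 7.41 with scramble and 7.40 untreated. With median scaling and on unnormalized signals IRF9 and OAS3 lay further from scramble, on the lower side. HERC5, the ligase of the same ISG15 pathway, read 9.99, against 8.68 and 8.83. ISG15 itself, a ubiquitin-like modifier, read 8.24, against 7.42 and 7.04. USP18, the protease that removes ISG15 and dampens receptor signalling, was not detected on the PNAs-A15 array and was at least 3.2-fold lower than on the scramble array. Of the ISG15 pathway, then, UBE2L6 lay at least 2-fold above scramble under every scaling, on the probe that stands for it, and USP18 lay below scramble. HERC5 lay 1.31 above scramble, against 0.60 with median scaling and 0.25 on unnormalized signals, and ISG15 lay 0.82 above it with a sign that turned under both.

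The membrane proteins of the IFITM family, which block the fusion of enveloped viruses, were all higher on the PNAs-A15 array than on either other parental array. IFITM1 read 9.78 with PNAs-A15, against 6.77 with scramble and 7.07 untreated. IFITM2 read 15.19, against 14.13 on both other arrays, and IFITM3 read 14.51, against 13.81 and 13.84. Their differences from scramble were 3.01, 1.05 and 0.70, and all 3 stayed above 0 under the other scalings. The family's coding sequences are closely alike, and which copies a probe reads was not checked here, since probe sequences were not used. IFI6, a mitochondrial and membrane-associated antiviral protein, read 13.68, against 11.19 and 11.29, on the probe that stands for it.

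The IFIT proteins, which bind viral RNA ends, did not move as a block. IFIT1 read 8.17 with PNAs-A15, against 5.94 with scramble and 6.25 untreated. IFIT2 read 8.003, against 6.83 and 6.89. IFIT3, which stabilises IFIT1 in a complex, was not detected on the PNAs-A15 array, where it read 4.87, against 6.01 with scramble and 5.82 untreated, so no fold is given for it. IFIT5 read 6.72, against 7.33 and 7.25. The 4 genes lie side by side on chromosome 10, and 2 of them were at least 2-fold higher while the other 2 read lower. IFIT2 turned to -0.09 on unnormalized signals.

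SAMD9, an antiviral factor that restricts poxviruses, read 8.78 with PNAs-A15, against 6.60 with scramble and 7.16 untreated. The dynamin-like GTPase MX1 read 8.44, against 7.12 and 7.19, and its difference of 1.33 shrank to 0.00 on unnormalized signals. ISG20, an RNA exonuclease, lay 1.20 above scramble and IFI35 1.22 above it. OAS3, an oligoadenylate synthetase that activates RNase L, read 8.27 with PNAs-A15, against 10.24 with scramble and 10.25 untreated, and the ISRE core printed for it starts 12 bases before the transcription start. DTX3L, an E3 ligase that works as a pair with PARP9, was not detected with PNAs-A15 and was at least 1.15-fold lower than with scramble, while PARP9 differed by 0.07. BST2 (tetherin), which holds budding virions at the membrane, was detected on 2 of the 6 arrays, parental PNAs-A15 and parental untreated. IFI27, OAS2 and OASL were not detected on any array.

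Of the 7 antigen presentation genes 0 were at least 2-fold higher and 1 was lower on this pair, against the same 21% and 16.8% of all genes, and their median was -0.09. B2M, the light chain of HLA class I, read 14.78 with PNAs-A15, against 13.93 with scramble and 14.17 untreated. TAP2, a subunit of the peptide transporter, read 8.10, against 9.58 and 9.64, whereas TAP1, its partner, differed from scramble by 0.09. HLA-B, HLA-C and the immunoproteasome subunits PSMB8 and PSMB9 differed by -0.38, -0.09, -0.14 and 0.19.

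**Figure D1:**
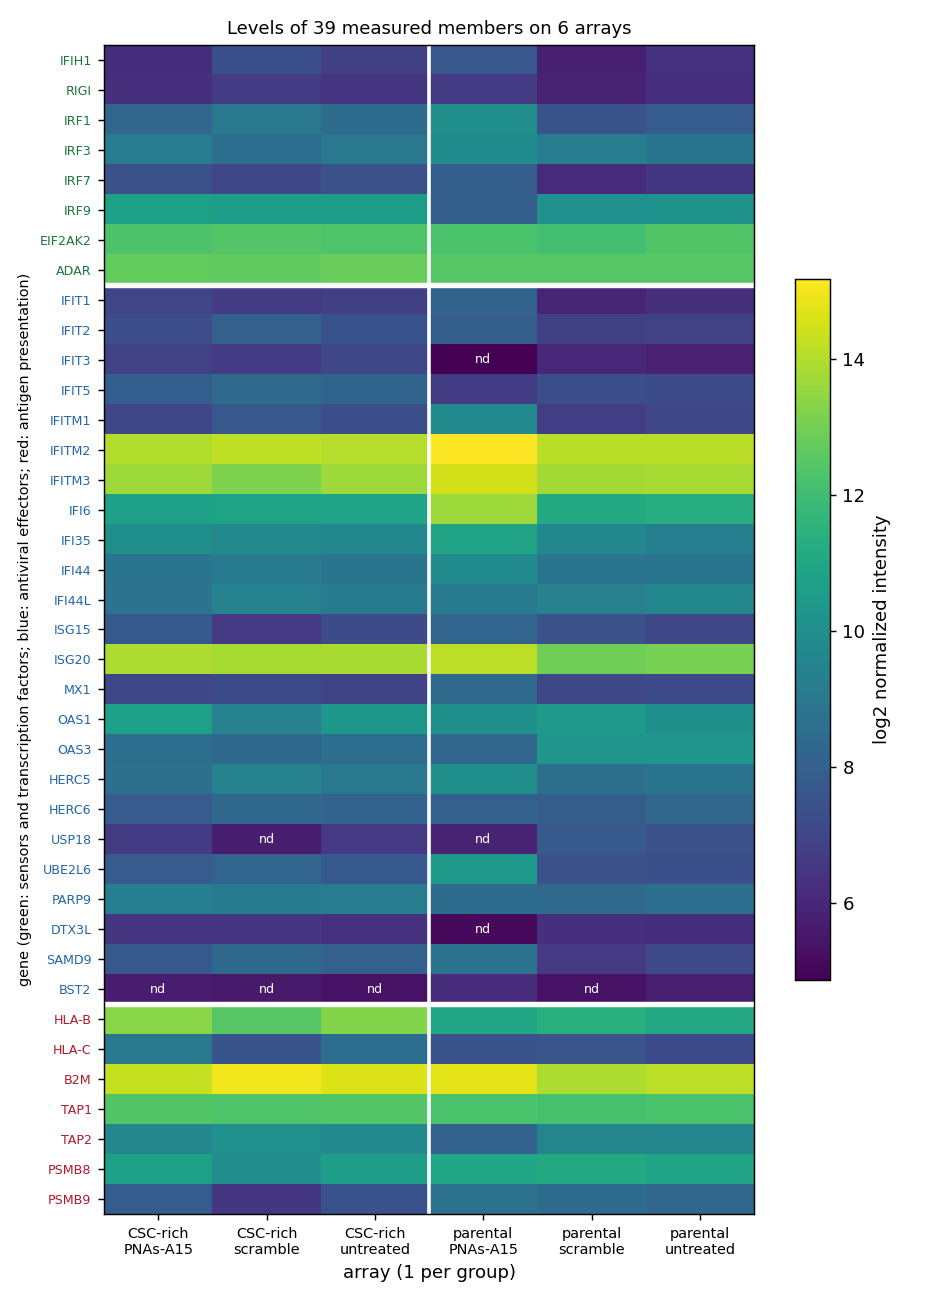
Log2 normalized intensity (colour) of the 39 measured members on each of the 6 arrays, grouped by role; "nd" marks an array on which the probe was not detected. The parental PNAs-A15 column shows the single-array values of UBE2L6 (10.45), IFITM1 (9.78) and IFI6 (13.68) above the other columns, and HLA-B is brighter in the 3 CSC-rich columns.

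Of the 14 members at least 2-fold above scramble in parental cells, 10 were still at least 2-fold higher with scaling to the array median and 4 on unnormalized signals, and 14 and 12 stayed above 0. All 6 lower members stayed below 0 under both, and IRF9, OAS3, TAP2 and USP18 read at least 2-fold lower under each scaling. The 4 that stayed at least 2-fold higher on unnormalized signals were IFITM1, IFI6, UBE2L6 and IRF1. The scalings moved the median of all genes on this pair to -0.29 and -0.43, and the member median to -0.03 and -0.30, so the member median lay 0.50, 0.26 and 0.13 above that of all genes with the main scaling, the median scaling and none. Against the untreated parental array 16 members stood 2-fold or more higher and 5 lower, with 20.6% and 17.2% of all genes, again 37.8% together, and with bounds 4 were lower; this pair shares the PNAs-A15 array with the first. Of 11 immune cell markers 5 were measured. CD68, CD14 and LYZ were higher on the parental PNAs-A15 array than with scramble, CD68 and CD14 by 1.53 each and LYZ at least 5.05-fold, MS4A1 read 0.96 higher, and FCGR3A was not detected with PNAs-A15. The summed linear level of the 5, to which CD68 gives most, was 7443 with PNAs-A15, against 2592 with scramble and 2200 untreated in parental cells. It was 6646, 6093 and 4404 in CSC-rich cells with PNAs-A15, with scramble and untreated. PTPRC, the pan-leukocyte marker, CD3E, ITGAM, CSF1R and NKG7 were not measured. The 4 measured fibroblast and endothelial markers summed to 1765 in parental cells with PNAs-A15, against 4939 with scramble and 6813 untreated: COL3A1 lay at -3.74 against scramble and LUM was at least 5.8-fold lower, while PDGFRB and DCN lay at 1.45 and 0.24. The keratins moved apart, with KRT8 at 0.50 and KRT19 at -1.95 against scramble; the part of these markers in the result was not tested.

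In CSC-rich cells PNAs-A15 was compared with scramble in the same way. Of 39 members 4 (10.3%) were at least 2-fold higher, against 6.39% of all genes, and 1 (2.56%) was lower, against 3.1%, or 9.49% in either direction. With scaling to the array median 5 were higher and 0 lower, with 9.22% and 0.777% of all genes. The 4 were HLA-C, PSMB9, OAS1 and ISG15, at 1.43, 1.34, 1.26 and 1.10, and the lower one was IFIH1 at -1.15. HLA-C, a heavy chain of HLA class I, read 8.99 with PNAs-A15, against 7.56 with scramble and 8.61 untreated. PSMB9, the immunoproteasome subunit that replaces a constitutive one, read 7.85, against 6.51 and 7.47. On its second kept probe, which was not detected with PNAs-A15, scramble was the higher array, with 6.19 against 5.74 untreated. ISG15 read 7.70, against 6.60 and 7.28. In each of these 3, on the probe that stands for the gene, the scramble array was the low one and PNAs-A15 lay within 0.42 of the untreated array. The keratins KRT8 and KRT19 moved with these genes, with a summed linear level of 13980 with PNAs-A15, against 5198 with scramble and 8332 untreated in CSC-rich cells; their part in the result was not tested.

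The members furthest above scramble in PNAs-A15-treated parental cells had the following CSC-rich values. They are given as a description, since these members were chosen by the parental array. UBE2L6 read 7.84 with PNAs-A15, against 8.22 with scramble and 7.71 untreated in CSC-rich cells. IFITM1 read 7.065, against 7.662 and 7.365, and IFI6 read 10.71, against 10.86 on both other arrays. IRF1 read 8.28, against 9.01 and 8.52, with the scramble array the highest. IFIT1 read 7.03, against 6.71 and 6.80, and SAMD9 read 7.70, against 8.30 and 8.02. OAS1 and USP18 were not among the members above scramble in parental cells. In CSC-rich cells OAS1 read 10.70, against 9.45 and 10.34, so its low array was scramble. USP18, not detected with scramble, was at least 1.76-fold higher with PNAs-A15.

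IFIH1 was the opposite case, with 6.24 on the PNAs-A15 array, 7.38 on the scramble array and 6.83 on the untreated array of CSC-rich cells. Its difference was -1.15 in CSC-rich cells and 1.91 in parental cells, and it was the 1 member at least 2-fold apart in opposite directions in both populations, as were 3.02% of all genes. With median scaling the values were -0.86 and 1.12, and on unnormalized signals -0.37 and 0.29, so the CSC-rich value is under 2-fold in both. In the same direction in both populations, 0 members were at least 2-fold apart, as were 1.17% of all genes. Between PNAs-A15 and untreated CSC-rich cells 0 of 39 members were at least 2-fold apart, against 0.496% of all genes (0.281% higher, 0.215% lower). Every member lay between -0.59 and 0.42 on that pair, with a median of 0.00. UBE2L6, IFITM1, IFI6 and IRF1, the members at least 2-fold higher in parental cells under each scaling, lay at 0.13, -0.30, -0.15 and -0.24 against untreated CSC-rich cells.

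**Figure D2:**
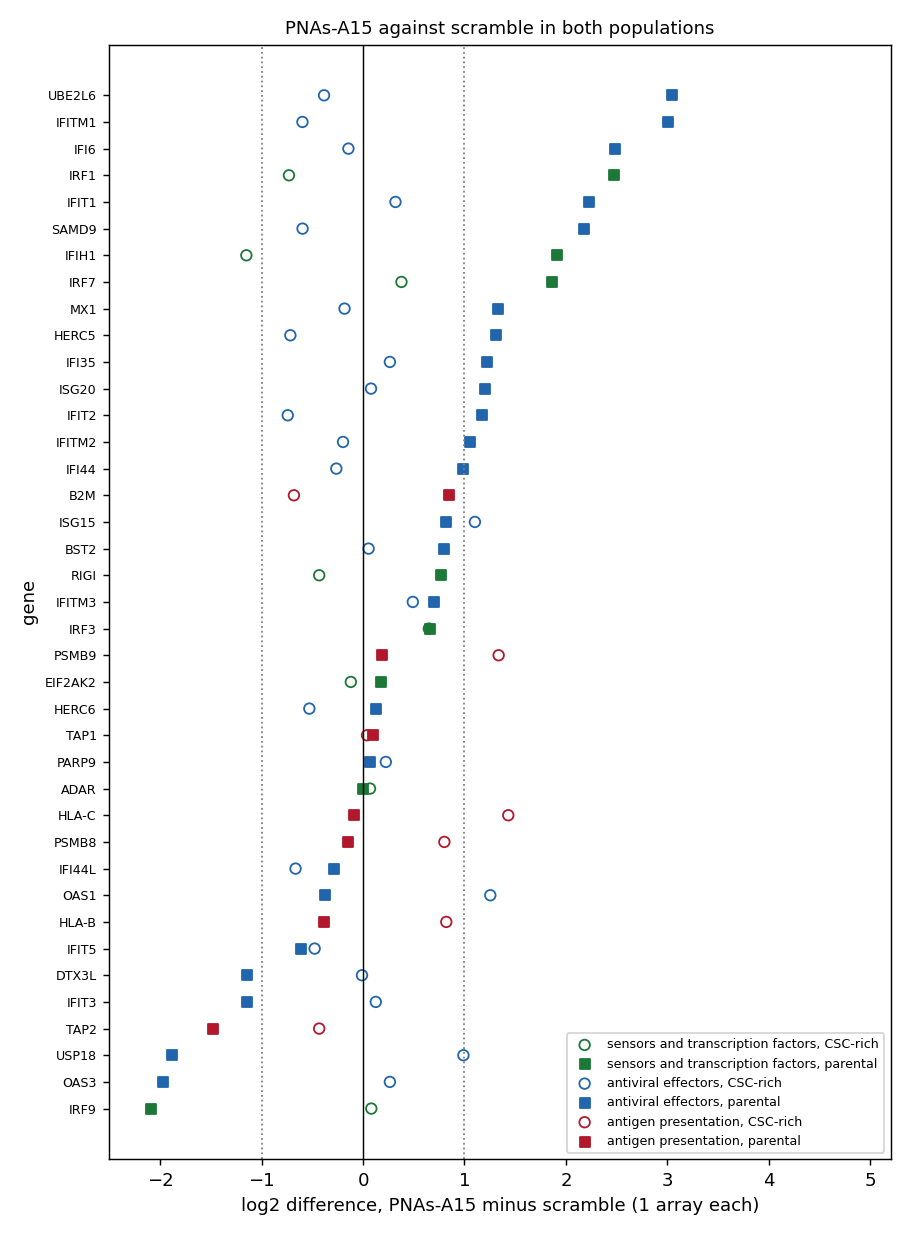
Log2 difference of PNAs-A15 minus scramble for each of the 39 members, with open circles for CSC-rich cells and filled squares for parental cells (1 array per group); dotted lines mark 2-fold. Parental values of IFIT3, USP18 and DTX3L and the CSC-rich value of USP18 rest on a probe not detected on 1 of the arrays. Parental values run from -2.09 (IRF9) to 3.04 (UBE2L6), CSC-rich values from -1.15 (IFIH1) to 1.43 (HLA-C).

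By its median, the antigen presentation class read lower on the CSC-rich scramble array than on its untreated control, mostly by less than 2-fold. HLA-C was lower by 1.06 on the log2 scale (-1.06), and PSMB9, HLA-B and PSMB8 lay at -0.96, -0.77 and -0.74, while B2M and TAP2 lay at 0.31 and 0.27. The second kept probes of PSMB9 and B2M went the other way from the first, at 0.44 and -0.13. The class median was -0.74, beside 0.08 for all genes, and 0 of 39 members stood 2-fold or more higher and 1 lower, against 0.76% and 3.01% of all genes (3.77% together). Of the other antigen presentation genes, 11 of 13 listed were measured. Their differences ran from -0.944 to -0.099, with TAPBP (tapasin) at -0.94 and HLA-F at -0.91. Their median was -0.428, beside the same 0.08 for all genes, and 0 of the 11 were at least 2-fold lower, against 3.01%. The 11 include NLRC5, detected on 2 of the 6 arrays, which read 4.95 with scramble and 5.05 untreated. The share of all genes that read lower at any size was not counted. Across the 39 members, the difference of PNAs-A15 minus scramble in parental cells and that of scramble minus untreated in CSC-rich cells, which share no array, had a Pearson r of 0.41 and a Spearman rho of 0.47. Over all 12101 genes r was 0.16. The arrays with the 2 lowest shares of detected probes, parental PNAs-A15 and CSC-rich scramble, each enter 1 of these differences. The part of detection in the relation was not tested. Genes are not independent replicates, so no p is given.

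When treatment and population entered 1 limma model as additive terms, 0 of the 39 members passed an adjusted p of 0.05 for PNAs-A15 against scramble, 0 for PNAs-A15 against untreated and 0 for scramble against untreated. The background was 0% of all genes in each of these contrasts, and 0 of the 39 members had an unadjusted p under 0.05 in any of them, with 4.05%, 3.72% and 0.00826% of all genes in that order. The model leaves 2 residual degrees of freedom and takes any difference between the populations' responses as error.

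Probes of the same gene did not always move together. Of the 39 members 11 had 2 or more probes past the filter, and in 8 of these (72.7%) the probes differed by at least 2-fold from each other in PNAs-A15 minus scramble in parental cells, against 56.4% of 3159 such genes in all. In CSC-rich cells the figure was 3 of 11 (27.3%), against 23.9%. The calls of IFIT3 and PSMB8 in parental cells and of PSMB9 in CSC-rich cells rest on a probe not detected on at least 1 of the arrays compared. OAS1, a synthetase with several spliced forms, gave -2.62, -0.37, 0.36 and 1.93 on its 4 probes in parental cells and 2.77, 1.26, 0.76 and -0.48 in CSC-rich cells, in the same order of probes. The second probe of IFI6 lay at -0.33 where the first lay at 2.49, and that of B2M at -1.18 where the first lay at 0.85. For ADAR the pair was 0.00 and -1.83, and for PARP9 0.07 and 1.48. UBE2L6 lay above scramble on both probes, at 3.04 and 0.74. The deposited signals of its second probe were 161.6 with PNAs-A15 and 171.3 with scramble, so that probe read lower on unnormalized signals. The second probe of OAS3 was not detected on the parental PNAs-A15 array, so no fold is given for it. IFITM1, IRF1, IRF9, SAMD9, MX1 and HERC5 had a single probe past the filter.

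**Figure D3:**
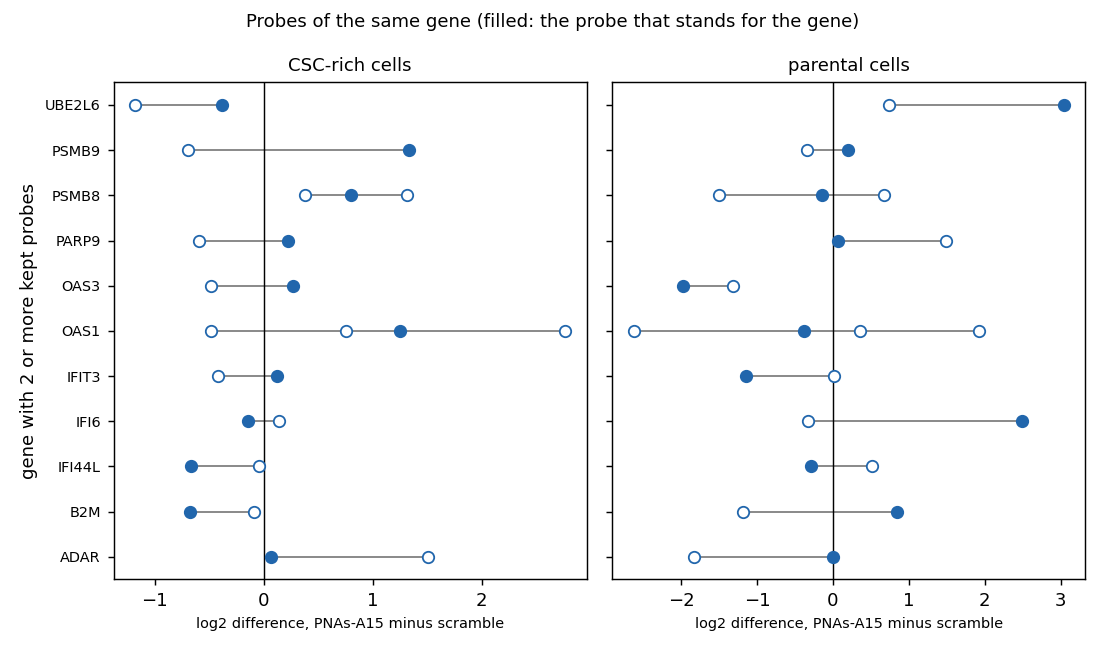
Log2 difference of PNAs-A15 minus scramble for every kept probe of the 11 members with 2 or more, in CSC-rich cells (left) and parental cells (right); the filled point is the probe that stands for the gene. The 4 probes of OAS1 spread from -0.48 to 2.77 in CSC-rich cells and from -2.62 to 1.93 in parental cells.

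The last comparison asked how CSC-rich cells differed from parental cells. HLA-B had the largest fitted difference of any member and was higher on every CSC-rich array, with 13.34, 12.52 and 13.28 in PNAs-A15-treated, scramble-treated and untreated CSC-rich cells, against 11.05, 11.43 and 11.09 in the matching parental cells. The additive fit gave 1.85 ± 0.38 (SE, n = 3 arrays per population), and limma's adjusted p of 0.065 missed the threshold. That value ran from 1.64 to 2.24 over 10 alternative settings, with limma's adjusted p between 0.00446 and 0.253 and past the threshold in 3 of them. Of these 3, the fits without the parental PNAs-A15 array and without both PNAs-A15 arrays are the same fit. The settings that leave out the CSC-rich scramble array or both scramble arrays are also a single fit. HLA-C lay at 0.96 ± 0.41, its untreated pair at 1.41 and its scramble pair at -0.03. Heavy chain genes of HLA class I are closely alike, so a probe of one can read others. PSMB9 went the other way, with 7.85, 6.51 and 7.47 in CSC-rich cells, against 8.71, 8.51 and 8.26 in parental cells, and a fitted difference of -1.22 ± 0.38 (limma, adjusted p 0.16). Its second kept probe, not detected with PNAs-A15 in either population, lay at -0.13 on the scramble pair and -0.57 on the untreated pair.

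Among the effectors, IFIT3 and IFIT5 were above their parental counterparts on all 3 pairs. IFIT5 read 7.96, 8.44 and 8.20 in CSC-rich cells, against 6.72, 7.33 and 7.25 in parental cells, a fitted difference of 1.10 ± 0.32 (limma, adjusted p 0.14). IFIT3 read 6.84, 6.72 and 7.05, against 4.87 (not detected), 6.01 and 5.82, a fitted difference of 1.31 ± 0.37 that rests in part on a level below detection. The second kept probe of IFIT3, not detected on any parental array, read 0.11, 0.54 and 0.46 higher on the PNAs-A15, scramble and untreated pairs. OAS3 read 8.58, 8.32 and 8.58 in CSC-rich cells, against 8.27, 10.24 and 10.25 in parental cells, so it was lower on the scramble and untreated pairs and 0.32 higher on the PNAs-A15 pair. Of the sensors and transcription factors, IRF9 lay at 0.45 on the untreated pair and 2.74 on the PNAs-A15 pair, and IRF1 at 0.63 and -1.74.

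In limma's additive fit 0 of 39 members passed an adjusted p of 0.05, against 2.31% of all genes (0.835% higher and 1.47% lower), and 5 of 39 had an unadjusted p under 0.05, against 18.9%. Those 5 were HLA-B, IFIT3, IFIT5, PSMB9 and IRF9. The 3 CSC-rich arrays lay above the 3 parental arrays in 9 members, against 16.7% of all genes, and below them in 4, against 17.2%, with the other 26 overlapping. The member median was 0.06, beside 0.01 for all genes. With PNAs-A15, 7 members were 2-fold or more above parental cells and 10 below, where all genes gave 18.5% and 20% (38.6% together); IFIT3 and DTX3L, not detected in parental cells with PNAs-A15, are bounded at 1.74-fold and 1.35-fold, which leaves 5 above. With scramble it was 7 and 4, where all genes gave 15.9% and 13.2% (29.1% together). Untreated, it was 3 and 1, where all genes gave 6.7% and 5.91% (12.6% together). Scaling to the array median turned the first split to 11 and 5 and the second to 3 and 6.

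Without the parental PNAs-A15 array, 8 of 39 members (20.5%) passed limma's adjusted p of 0.05, against 19.2% of all genes, in a fit with 1 residual degree of freedom. HLA-B (1.64 ± 0.34), SAMD9 (1.28 ± 0.33), IRF1 (1.05 ± 0.33), IFIT5 (1.03 ± 0.31) and IFIT3 (0.97 ± 0.32) were higher, against 10.5% of all genes. OAS3 (-1.80 ± 0.31), USP18 (-1.43 ± 0.35) and PSMB9 (-1.40 ± 0.35) were lower, against 8.73% of all genes. USP18 was not detected on the CSC-rich scramble array. The CSC-rich PNAs-A15 array has no parental partner in this fit. These 8 differences, each on the probe that stands for its gene, rest on the scramble and untreated arrays of each population. Their adjusted p-values in limma's fit lay between 0.00125 (OAS3) and 0.0454 (IFIT3).

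**Figure D4:**
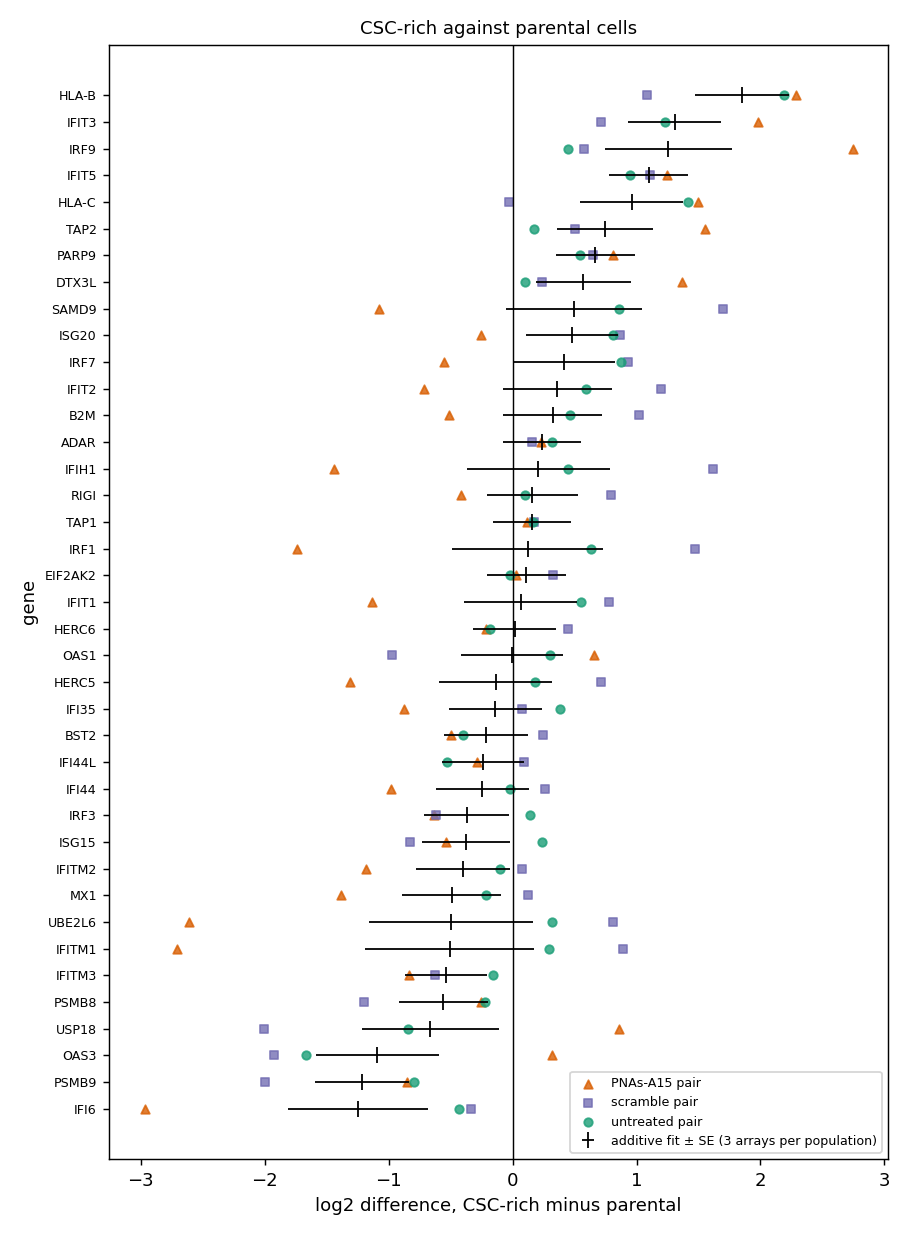
Log2 difference of CSC-rich minus parental cells for the 39 members, as the additive fit with its SE (black, 3 arrays per population) and as the 3 single pairs. HLA-B has the highest fitted value (1.85), IFI6 the lowest (-1.25), and the PNAs-A15 pair (triangles) departs from the other pairs in IRF9, IFITM1, UBE2L6 and IFI6.

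Other genes of the pathway, from lists drawn up beside the members, were read the same way. Of 19 ligand, receptor and signalling genes 13 were measured, and the interferon genes IFNA1, IFNB1, IFNG and IFNL1 were not among them. On the parental PNAs-A15 array 4 of the 13 were at least 2-fold higher than with scramble and 2 lower, bounds included, against 20.3% and 14.4% of all genes. The largest differences in measured value were those of JAK1, IRF5, JAK2 and SOCS3, each with 1 array below detection. IRF5, a transcription factor downstream of Toll-like receptors, was at least 9.89-fold higher, being undetected with scramble. JAK1, the kinase paired with TYK2 at the type I receptor, was not detected with PNAs-A15 and was at least 12.7-fold lower. JAK2, the kinase of the interferon gamma receptor, was at least 1.78-fold lower, and SOCS3, a feedback inhibitor of JAK kinases, was at least 2.07-fold lower. The receptor subunits IFNLR1 and IFNAR1, detected on both arrays and chosen after their values were seen, lay at 1.60 and 1.45.

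Of 18 further sensing genes 11 were measured, of which 1 was at least 2-fold higher on that pair, the adaptor TRAF3 at 1.26, and 0 lower. Of 25 further interferon-stimulated genes 17 were measured, 3 at least 2-fold higher and 4 lower with bounds included, where all genes gave 20.3% and 14.4% as for the sensing genes. TRIM5, a restriction factor of retroviruses, was at least 6.97-fold lower and PLSCR1 at least 2.72-fold lower, and LGALS3BP and ZC3HAV1, an antiviral RNA-binding protein, lay at -1.76 and -1.38. Of 13 further antigen presentation genes 11 were measured. In CSC-rich cells 5 of these 11 were at least 2-fold higher with PNAs-A15 than with scramble, bounds included, against 5.33% of all genes, among them PSME2, an activator of the immunoproteasome, at 1.30, and 0 were so against the untreated array, where all genes gave 0.215%. Between populations HLA-G and HLA-F lay at 1.55 ± 0.35 and 1.58 ± 0.40 in the additive fit (limma, adjusted p 0.081 and 0.11). PSME2 went the other way, at -1.515 ± 0.405 (limma, adjusted p 0.122). Of the 11 genes 5 lay above 0, and their median was -0.240. In that fit 0 of the 11 were past the threshold and 4 at an unadjusted p under 0.05, where all genes gave 2.31% and 18.9%.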

How the data were processed

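RNA levels were read on HumanHT-12 v4 bead arrays. For every probe, the deposited table gives an intensity on a linear scale with its detection p-value, made with GenomeStudio 2011.1 per the submitters' processing notes. The intensity values of the deposited series matrix equalled those of that table in 100% of cells, so they are linear and not normalized between arrays.

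Probes were named through a platform annotation: 30113 of 47323 carried 1 symbol, while 17202 not listed there and 8 with several symbols stayed unnamed. Identifiers were matched to RefSeq genes of GRCh38.p14. Signals were corrected with limma's neqc (limma 3.58.1, R 4.3.3) (offset 16; background taken from the deposited detection p-values), which also quantile-normalizes and takes log2, so the log2 values are computed from the deposited intensities. Probes detected on at least 2 arrays were kept, and the brightest stood for its gene. A probe not detected on 1 array of a pair has a bound there, "at least N-fold", set by the higher of its own value and the lowest detected value of that array. Tests are limma's additive model with Benjamini-Hochberg adjustment over 12101 genes. With 1 array per group, each p-value reflects the scatter of these 6 arrays alone, which may be technical. The additive fit of CSC-rich against parental cells was tested on simulated data with equal spread and no outlying array, and the motif search on made sequences. The other steps were not tested in this way.

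Every measured member could be named. Those at least 2-fold apart or past a threshold were described, most by array and some by their difference or bound alone. Of the other pathway lists, up to 4 genes per comparison were named for having the largest difference. The members and lists were chosen with earlier results of these data known. Alternatives were the scaling, filter, probe rule, offset and arrays left out. Median scaling kept the background correction and offset. Unnormalized signals are the log2 of the deposited intensities without either, so a move there is not due to the scaling between arrays alone.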

Additional observations from a re-analysis of the deposited data

Results flagged for a closer look

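IFIH1 differed between PNAs-A15 and scramble by -1.15 in CSC-rich cells and by 1.91 in parental cells, with 1 array in each group, so the single-array differences had opposite signs. It was the 1 member of 39 at least 2-fold apart in opposite directions, as were 3.02% of all genes. Its deposited signals with PNAs-A15 and scramble were 187 and 241.8 in CSC-rich cells, and 211.3 and 172.4 in parental cells. With scaling to the array median the values were -0.86 and 1.12, and on unnormalized signals -0.37 and 0.29. The difference between the populations was not tested.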

How the results depend on the processing

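With 1 array per group, all pair values rest on single arrays, and arrays of this number limit the precision. No analysis paired by culture was possible, because each group has 1 array and the labels do not say which arrays share a culture. The additive fit already sets the populations against each other within treatment. For CSC-rich against parental cells, offset 50 gave 1 higher member (HLA-B) past the threshold, and the fits without the parental PNAs-A15 array and without both PNAs-A15 arrays, which are the same fit for this contrast, gave 5 higher and 3 lower, against 0 with all 6 arrays and the main settings. Without the CSC-rich scramble array, an alternative chosen after seeing the data, the count was 0, with 0.719% of all genes called. For PNAs-A15 minus scramble in parental cells the member median of 0.70 became -0.029 with scaling to the array median, -0.30 on unnormalized signals and 0.19 with no filter, where 43 members were measured; 10 members were lower with median scaling and 4 higher on unnormalized signals. Against the untreated parental array, 8 were higher and 9 lower with median scaling, and on unnormalized signals 4 were higher and the median was -0.084. In CSC-rich cells the count of lower members against scramble went to 0 with median scaling, offset 50 and no normalization, and that of scramble against untreated to 4, 0 and 2 in that order. For CSC-rich minus parental cells, 1 member was higher on unnormalized signals on the untreated pair, and 3 and 0 with median scaling and no normalization on the scramble pair, whose median of 0.33 became -0.05 on unnormalized signals. Over all genes, 279 passed in the main setting, 111 with median scaling, 21 unnormalized, 0 of 20046 in limma with no filter (6 members at an unadjusted p under 0.05) and 2324 without the parental PNAs-A15 array. On the PNAs-A15 pair the median became 0.09 and 0.24 with those settings, 11 members were higher with median scaling, and 5 and 4 were lower. Among members at least 2-fold apart, those that turned sign on unnormalized signals were IFIT2 (-0.092 against scramble and -0.014 against untreated) and MX1 (-0.001) in parental cells, and SAMD9 (0.002) on the PNAs-A15 pair. The cause of these moves was not tested.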
